A study of Mus musculus with 6 samples.

Results

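The genes of the Notch, Wnt, BMP and Hedgehog pathways were taken from a translating ribosome affinity purification (TRAP) study of serotonin neurons. A gene belonged to the set if its single symbol in the platform annotation was that of a Notch receptor, a Jagged or Delta ligand, a Hes or Hey repressor, a Wnt ligand, a Frizzled receptor or Lrp co-receptor, a secreted Wnt inhibitor (Sfrp, Dkk), Axin, a TCF/LEF factor, a BMP ligand or receptor, a Smad, Id1 to Id3, or the Patched, Smoothened and Gli genes. The rule found 89 genes, read by 181 probe sets, out of 18193 genes with a single-symbol probe set. By pathway they were 18 Notch, 44 Wnt, 22 BMP and 5 Hedgehog genes. Bmp3 was not analysed here.

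The samples came from adult mice of both sexes, 6 to 12 weeks old, on a mixed FVB and C57BL/6J background, that carried the TRAP transgene of the slc6a4 JD60 line, on a bacterial artificial chromosome. In TRAP, ribosomes tagged in the cells that express such a transgene are pulled out of the tissue lysate together with their mRNA. The regulatory region of Slc6a4, the serotonin transporter gene, drove the transgene here. The IP group held 3 arrays of RNA from the purified ribosomes, labelled as serotonin neuron RNA, and the unbound group held 3 arrays of the RNA left in the lysate, labelled as total tissue RNA. Both groups came from the same pools of 5 mice per sample, so every sample carried the transgene and none came from mice without it. The tissue was midbrain and brainstem without cerebellum. A difference between IP and unbound RNA can come from the cell type or from loading onto ribosomes, and these cannot be told apart. In the unbound RNA of a whole tissue, fewer cells of a type and less RNA per cell cannot be told apart either.

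In the Notch pathway, Jagged or Delta ligands on one cell bind Notch receptors on its neighbour, whose cleaved intracellular part joins the DNA-binding protein RBPJ and switches on Hes and Hey repressors. Wnt ligands bind Frizzled receptors with Lrp5 or Lrp6, which stops the Axin complex from destroying beta-catenin, so that it can act with TCF/LEF factors. BMP receptors phosphorylate Smad1, Smad5 and Smad9, which join Smad4 and induce Id genes, while Hedgehog ligands bind Patched and so free Smoothened to act on Gli factors. All of them pattern the embryonic midbrain and hindbrain, where serotonin neurons are born, and in the adult brain many of their receptors and target genes are expressed by astrocytes and neural stem cells.

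Values are log2 expression after the IP arrays were scaled to the biotin hybridisation controls. A log2 value of 5 is called the detection limit, and a gene was tested if at least 3 of the 6 arrays reached it. "Rose" and "fell" are used of genes called at an adjusted p under 0.05 (limma, Benjamini-Hochberg over the 10581 genes tested) and a change of at least 2-fold. The fractions bore out their labels. All 6 markers of serotonin neurons rose (Tph2, the enzyme of serotonin synthesis, was at 15.16 in IP and 9.35 in unbound RNA), and 5 of 7 pan-neuronal genes were not called, with Tubb3 higher and Elavl3 lower. All 8 astrocyte markers fell, with a mean log2 level of 5.95 to 6.08 on the IP arrays and 9.48 to 9.91 on the unbound arrays, and Aldh1l1, Slc1a3, Sox9 and Fgfr3 were below the detection limit on every IP array. The 5 oligodendrocyte, 3 precursor and 4 pericyte or smooth muscle markers fell, as did both tested endothelial ones of 5 and 3 of 4 microglial ones, with Aif1 higher. Of the ependymal markers, Ccdc153 fell and Dynlrb2 rose. What part the loss of these cells' RNA from IP has in the falls described below was not tested.

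Of the 89 genes, 50 were tested, 34 were below the detection limit on all 6 arrays and 5 reached it on only 1 or 2. Among the 50, 5 rose (Hes6, Jag2, Wnt4, Dll1 and Wnt5a), against a background of 10.4% of all tested genes called higher, and 40 fell, against a background of 41.1% called lower. Hey1, Sfrp1, Sfrp4, Dkk3 and Smad2 were not called, and 51.6% of all tested genes were called in either direction. All IP arrays lay above all unbound arrays in 6 of the 50, beside 23.9% of all tested genes, and below them in 42, beside 59.1%. These counts were shaped by the filter, since 28 of the 50 lay below the limit on every IP array and entered the test only because they were high in unbound RNA, which fixed their direction. The other 22 reached the limit in both fractions. Of these, 5 rose and 13 fell, where 10.5% and 33.4% of all 8985 genes so measured were called higher and lower, and their median log2 change was -1.15, beside -0.43 for the 8985. Over all 50 the median was -3.01, beside -0.65 for all tested genes, but it is a fitted value shaped by the filter.

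**Figure D1:**
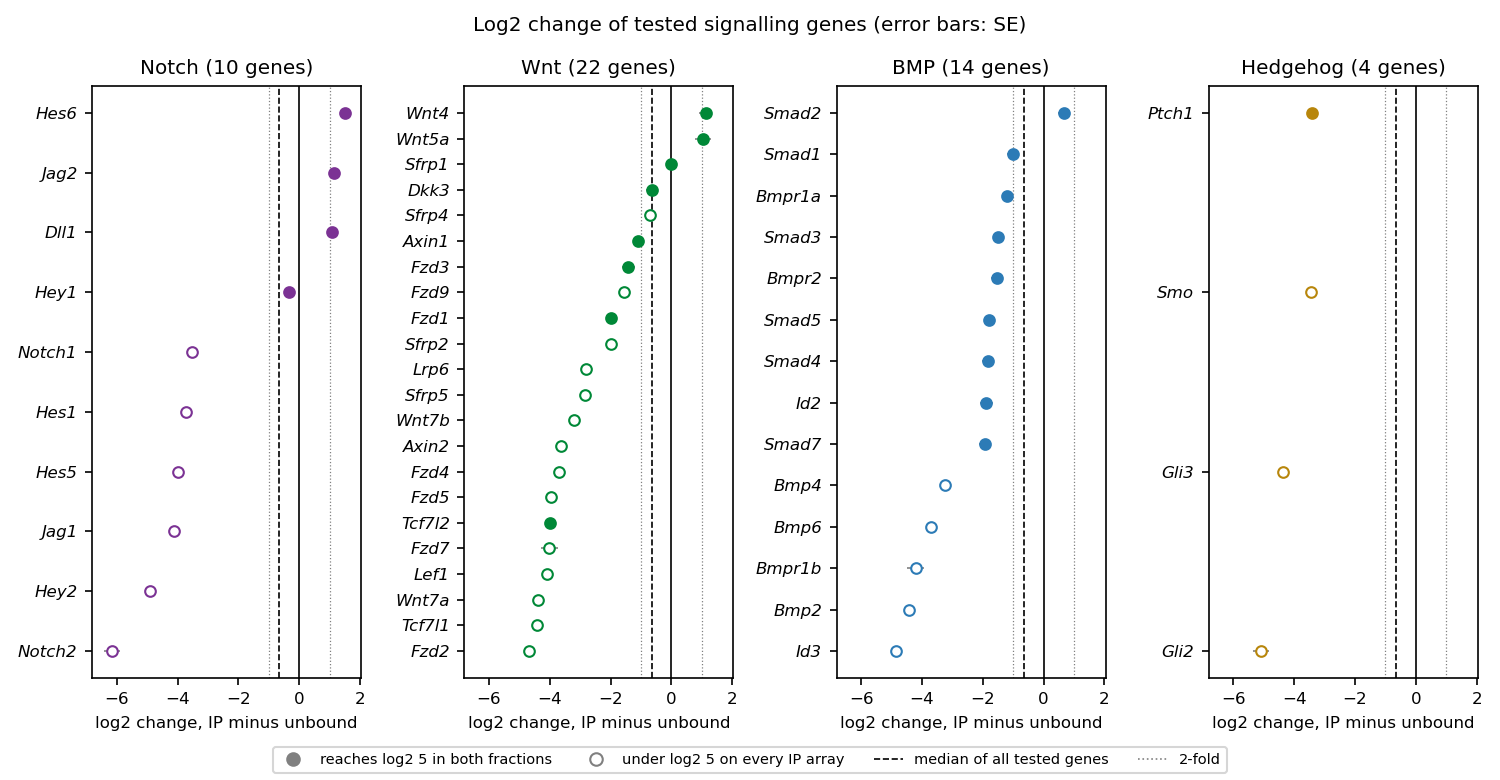
Log2 change of IP minus unbound on the horizontal axis for the 50 tested genes, one panel per pathway, with SE bars. Filled points are genes that reached log2 5 in both fractions and open points genes under it on every IP array, whose change is a fitted value below the limit. The dashed line is the median of all tested genes (-0.65) and the dotted lines mark 2-fold. The 5 genes past 2-fold on the higher side are Hes6, Jag2, Dll1, Wnt4 and Wnt5a, and the open points all lie below 0.

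The groups were normalised separately by the authors, so the level of one against the other depends on the scaling. Without scaling 6 of these signalling genes were called higher and 37 lower. The split was 7 and 28 after quantile normalisation, 7 and 32 with arrays centred on the median of expressed probe sets, and 8 and 27 with the median of all probe sets. The median change of all tested genes was -0.41, 0.04, 0.18 and 0.42 in the same order. Hes6, Jag2, Dll1, Wnt4 and Wnt5a were called higher under each of these. Of the 13 falls measured in both fractions, Tcf7l2 and Ptch1 kept their call and 11 lost it under at least 1 of these scalings (Axin1, Fzd1, Fzd3, Bmpr1a, Bmpr2, Smad1, Smad3, Smad4, Smad5, Smad7 and Id2), and Smad1 alone among them turned positive, at 0.012 with the median of all probe sets. The falls of Fzd9 and Sfrp2, below the limit in IP, lost their call as well. A scaling to the poly-A spikes called all 50 lower, but it did the same to 97.1% of all tested genes (median -3.37).

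**Figure D2:**
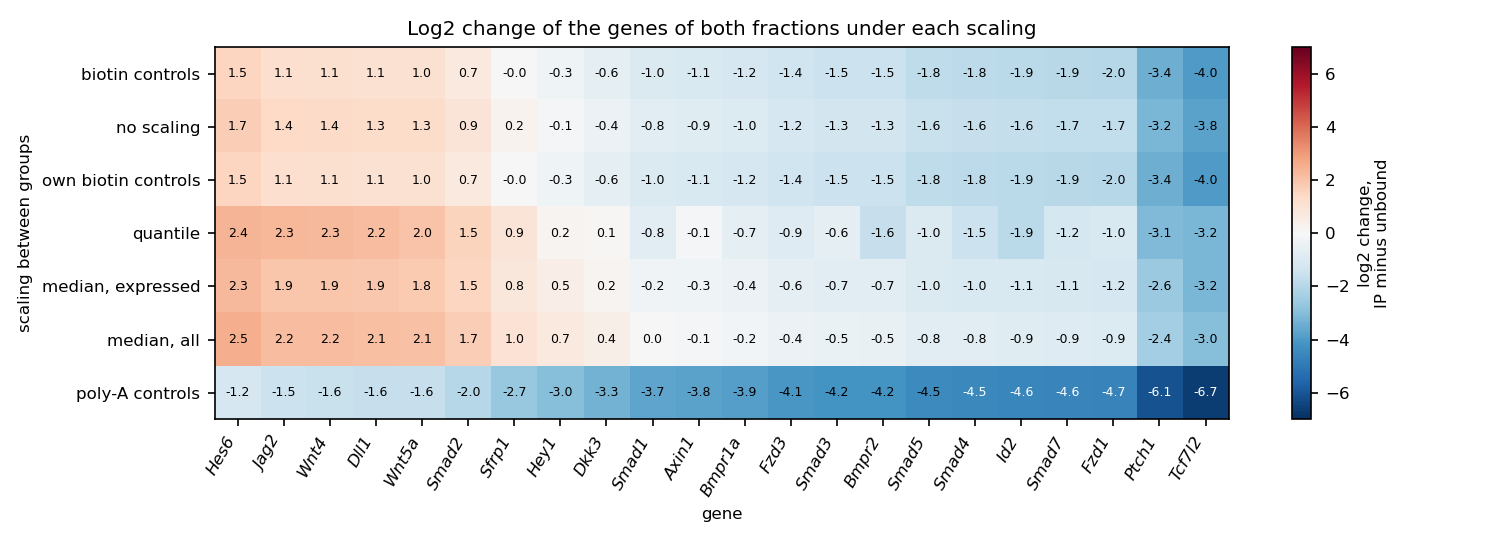
Log2 change of IP minus unbound for the 22 genes that reached log2 5 in both fractions (columns), under 7 scalings between the groups (rows), with each change printed in its cell and shown by colour. Hes6, Jag2, Wnt4, Dll1 and Wnt5a are positive in every row but the one for poly-A controls, and Ptch1 and Tcf7l2 are negative in every row.

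Notch pathway genes went in both directions. Of the 10 tested, the ligand genes Jag2 and Dll1 and the repressor gene Hes6 rose, and the receptor genes Notch1 and Notch2, the ligand gene Jag1 and the repressor genes Hes1, Hes5 and Hey2 fell. Hey1 was not called. Of all tested genes, 10.4% were called higher and 41.1% lower. All 6 genes that fell were below the limit on every IP array, so that the filter fixed their direction, and the median log2 change of -3.63 is a fitted value below that limit.

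Jag2, a membrane ligand of the Jagged type, had log2 values of 7.18, 7.04 and 7.04 in IP, against 5.93, 5.91 and 5.98 in unbound RNA. Every IP array lay above every unbound array, a 2.22-fold difference (log2 change 1.15, SE 0.08, limma adjusted p = 2.93e-05). Its second tested probe set also rose, by 2.52 on the log2 scale. That set was below the limit on every unbound array, so the filter fixed its direction. Dll1, a Delta-type ligand, had 7.02, 7.32 and 7.32 in IP, against 6.07, 6.18 and 6.18 in unbound RNA. The groups were again apart, by 2.11-fold (log2 change 1.08, SE 0.11, limma adjusted p = 0.000165). Jag1, the other Jagged ligand, was at 2.04 on every IP array, against 6.30, 6.00 and 6.17 in unbound RNA, and so at least 2.23-fold lower in IP (adjusted p = 5.67e-07). A bound of this kind sets the unbound mean against IP arrays counted at no less than the detection limit. The adjusted p printed beside a bound, here and below, is limma's for the fitted change and does not test the bound. It gives no support for the direction of such a gene, which the filter fixed. The ligand genes Dll3 and Dll4 were below the limit on all 6 arrays.

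Both tested receptor genes were below the limit in IP. Notch1 had 4.03, 4.03 and 4.09 in IP, against 7.78, 7.65 and 7.31 in unbound RNA, and was at least 5.98-fold lower in IP (adjusted p = 2.67e-06). Notch2 had 2.11, 2.94 and 2.09 in IP, against 8.71, 8.46 and 8.45 in unbound RNA, and was at least 11.6-fold lower in IP (adjusted p = 3.49e-06). The filter fixed the direction of both genes, and their IP values below the limit do not measure the gap between the fractions. Notch3, whose product is a receptor of mural cells, and Notch4, an endothelial receptor gene, were below the limit on all 6 arrays, though Notch4 passed it in IP without scaling, under quantile normalisation and with either median, and was then called higher.

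Among the Hes and Hey repressor genes, Hes5, a direct Notch target of neural stem cells and astrocytes, had 4.74 on every IP array, against 8.87, 8.71 and 8.65 in unbound RNA, and was at least 13.4-fold lower in IP (adjusted p = 4.55e-07). Hey2 had 2.00 on every IP array, against 7.17, 6.69 and 6.88 in unbound RNA, and was at least 3.76-fold lower in IP (adjusted p = 8.28e-07). Hes1, the broadly expressed Notch target, had 1.99 on every IP array, against 5.75, 5.75 and 5.66 in unbound RNA, and fell with a bound of at least 1.65-fold. None of these reached the limit on any IP array. Hes6 differs from them in function: its product antagonises Hes1 and promotes neuronal differentiation. It had 8.17, 8.45 and 8.45 in IP, against 6.64, 6.90 and 7.05 in unbound RNA, and every IP array lay above every unbound array (log2 change 1.50, SE 0.14, limma adjusted p = 0.000132). The Hes6 and Hes5 values come from probe sets of the _x_ type, in which some probes also resemble other transcripts. The other probe set of either gene was below the limit on all 6 arrays, with Hes6 at 4.93, 4.77 and 4.77 in IP and 4.10 on every unbound array. Hey1 had 9.36, 9.64 and 9.44 in IP, against 9.59, 9.82 and 10.01 in unbound RNA. The groups overlapped (log2 change -0.33, SE 0.14, limma adjusted p = 0.0692), and the sign turned positive under quantile normalisation (0.17) and with the median of expressed (0.47) or of all probe sets (0.70). Hes2, Hes3, Hes7 and Heyl were below the limit throughout.

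The promoter windows of 3 of these repressor genes are shown because Hes5 and Hey2, which are Notch targets, fell and Hes6 rose. The filter fixed the direction of Hes5 and Hey2, which were below the limit on every IP array. Each window runs from 250 bases before to 50 after a start listed for the gene, from RefSeq on GRCm38.p6, 5′ to 3′ on the gene's strand. The start used for Hes5 lies inside the gene, whose RefSeq entry begins at 154960626, before the printed window. Capitals mark the core letters of the RBPJ binding motif, TGGGAA, or their reverse complement TTCCCA.
Hes5 (chr4:154960673-154960972, plus strand): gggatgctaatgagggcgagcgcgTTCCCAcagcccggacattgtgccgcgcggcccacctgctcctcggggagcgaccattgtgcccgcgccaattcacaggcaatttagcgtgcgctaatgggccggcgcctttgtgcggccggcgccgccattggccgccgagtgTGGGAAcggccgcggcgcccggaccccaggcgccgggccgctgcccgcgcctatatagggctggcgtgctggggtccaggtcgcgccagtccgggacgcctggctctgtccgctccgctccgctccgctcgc
Hey2 (chr10:30842734-30843033, minus strand): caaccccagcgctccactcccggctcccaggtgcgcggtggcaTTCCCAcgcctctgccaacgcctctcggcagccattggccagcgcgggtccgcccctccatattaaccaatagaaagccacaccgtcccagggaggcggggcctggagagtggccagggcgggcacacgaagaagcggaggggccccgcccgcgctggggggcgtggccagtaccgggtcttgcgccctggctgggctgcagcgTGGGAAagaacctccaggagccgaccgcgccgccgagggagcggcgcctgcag
Hes6 (chr1:91413989-91414288, minus strand): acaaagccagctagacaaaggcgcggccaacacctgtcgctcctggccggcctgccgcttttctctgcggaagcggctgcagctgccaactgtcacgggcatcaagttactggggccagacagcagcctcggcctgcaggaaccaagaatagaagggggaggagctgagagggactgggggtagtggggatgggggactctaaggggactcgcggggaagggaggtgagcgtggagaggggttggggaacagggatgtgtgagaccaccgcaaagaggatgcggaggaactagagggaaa
In Hes5 the motif starts 82 bases before the start used for its window, with a copy on the opposite strand 226 bases before that start. Both copies lie inside the RefSeq span of the gene. Hey2 has a copy 3 bases before the start and another on the opposite strand 207 bases before it. RefSeq gives 2 Hes6 windows, and neither the window shown nor the other, at chr1:91413173-91413472, holds these letters. Of all 32851 windows, 25.6% held the motif on either strand and 1.81% on both. RefSeq windows were found for 61 of the 89 genes, and 16 of their 74 windows (21.6%) held it. It stood on both strands in 2 of the 74 (2.70%), which are the Hes5 and Hey2 windows shown. A match is a description of the letters, not evidence of binding.

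From a list of other Notch pathway genes, 26 were tested, of which 2 rose, 9 fell and 15 were not called. Beside these stand 10.4% of all tested genes called higher and 41.1% called lower. The filter fixed the direction of 4 of the 26 (Mfng, Nrarp, Adam17 and Maml1). Dlk1, which encodes a Delta-like membrane protein without the usual Notch-binding domain, had 12.29, 12.34 and 12.77 in IP, against 9.20, 9.48 and 9.47 in unbound RNA, an 8.49-fold rise (log2 change 3.09, SE 0.16, limma adjusted p = 9.32e-06). Mfng, a Fringe enzyme that sugars Notch receptors, had 5.16 on every IP array and was below the limit in unbound RNA, so that its rise has a bound of only at least 1.12-fold. The falls with the largest fitted change were those of Nrarp, a Notch target and feedback inhibitor (at least 9.79-fold), of Adam17, a shedding protease (at least 4.99-fold), and of Maml1, a coactivator of the Notch complex (at least 3.81-fold). Nrarp was at 3.32, 3.26 and 3.26 in IP, against 8.41, 8.20 and 8.26 in unbound RNA. Rbpj itself fell by 1.70 on the log2 scale. Among the tested genes of the gamma-secretase complex that cleaves Notch, Psenen (log2 change 0.69), Psen2 (0.93) and Aph1b (-0.37) were not called and Aph1a (-2.09) fell.

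**Figure D3:**
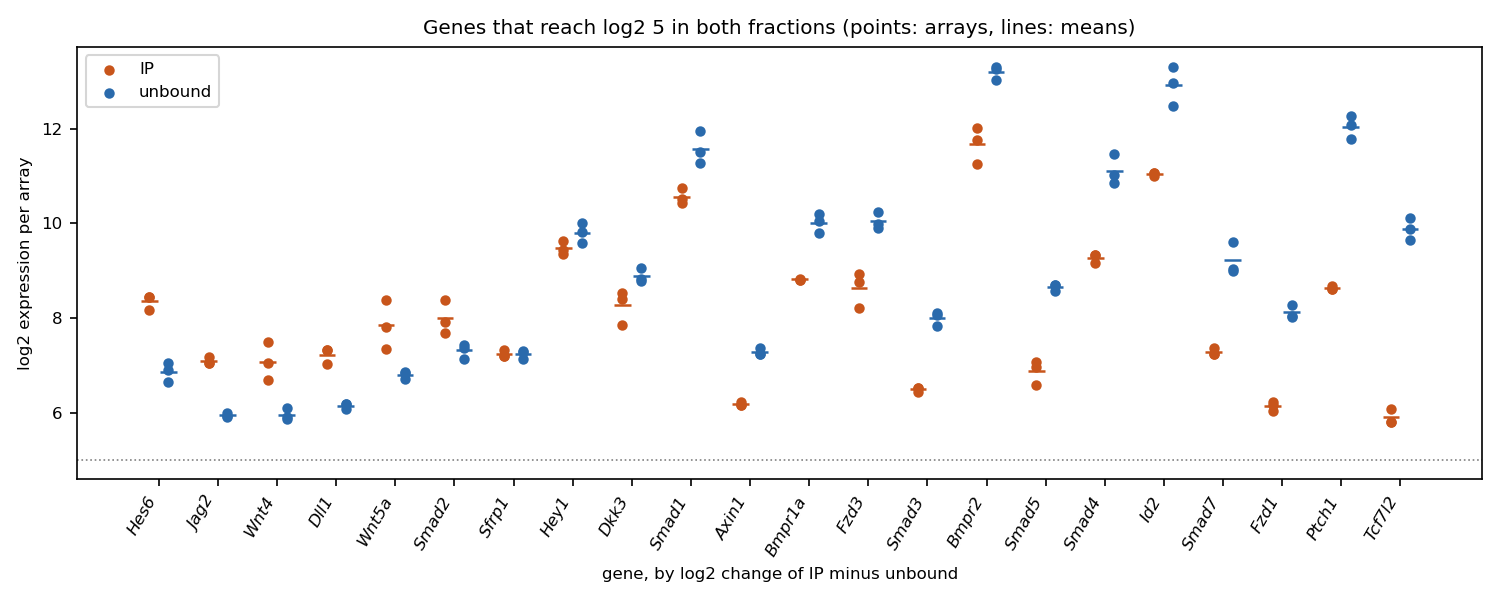
Log2 expression on each array for the 22 genes that reached log2 5 in both fractions, ordered by log2 change, with IP points left of unbound points and short lines at the group means. The dotted line is the detection limit. IP lies wholly above unbound RNA for Hes6, Jag2, Wnt4, Dll1, Wnt5a and Smad2, overlaps it for Sfrp1 and Hey1, and lies wholly below it for the other 14.

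Of the 44 Wnt genes, 22 were tested, of which 2 ligand genes rose and 17 genes fell, beside 10.4% and 41.1% of all tested genes. All 7 tested Frizzled receptor genes by their brightest probe sets (for Fzd3, 2 other probe sets were higher in IP), the co-receptor gene Lrp6, both Axin genes and all 3 TCF/LEF factor genes were among the falls, and 3 of the 5 tested secreted inhibitors were not called. Of the 22, 14 were below the limit on every IP array, which fixed their direction, and the median log2 change of -2.82 is a fitted value below that limit.

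Most Wnt ligand genes were not detected in either fraction. Of 19 on the array, 15 were below the limit on all 6 arrays, among them Wnt1, Wnt3 and Wnt3a, which pattern the embryo. Wnt5a, a ligand that acts largely without beta-catenin, had 7.35, 7.81 and 8.37 in IP, against 6.85, 6.84 and 6.71 in unbound RNA. All IP arrays lay above all unbound arrays (log2 change 1.04, SE 0.25, limma adjusted p = 0.00959), but the IP arrays were more than 1 log2 unit apart, and the change was 0.78 without IP replicate 3 and 0.997 without unbound replicate 3, both under 2-fold. Wnt4, a ligand best known from kidney and gonad development, had 7.04, 6.69 and 7.50 in IP, against 6.09, 5.91 and 5.86 in unbound RNA. It was 2.18-fold higher (log2 change 1.12, SE 0.21, limma adjusted p = 0.00302), with a change of 0.91, under 2-fold, without IP replicate 3. Of the other probe sets of these genes none reached the limit on any array, and the mean over Wnt4 probe sets changed by 0.75, which was not called.

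Wnt7a and Wnt7b, close relatives that both signal through beta-catenin, fell. Wnt7a had 2.01, 2.01 and 2.38 in IP, against 6.33, 6.63 and 6.56 in unbound RNA, and was at least 2.84-fold lower in IP (adjusted p = 1.52e-06) by its brightest probe set. A second probe set of Wnt7a went the other way, with 5.28, 5.23 and 5.23 in IP, against 3.16, 3.50 and 2.81 in unbound RNA. Its log2 change of 2.09 was called higher where every probe set was tested by itself (limma adjusted p = 8.88e-05). The brightest set was below the limit on every IP array and the second on every unbound array, so the filter fixed both directions. The direction of Wnt7a is therefore not settled by these arrays. Wnt7b was at 2.05 on every IP array, against 5.35, 5.12 and 5.26 in unbound RNA, close to the limit, and its bound was only at least 1.18-fold.

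Frizzled genes encode the receptors that bind Wnt. Fzd1 had 6.17, 6.23 and 6.02 in IP, against 8.04, 8.03 and 8.29 in unbound RNA, and fell 3.94-fold (log2 change -1.98, SE 0.11, limma adjusted p = 1.14e-05). Fzd3, a receptor needed for axon guidance, had 8.20, 8.76 and 8.93 in IP, against 9.91, 10.25 and 9.99 in unbound RNA. It fell by this probe set (log2 change -1.42, SE 0.21, limma adjusted p = 0.001). Its 2 other tested probe sets were higher in IP, at log2 changes of 0.84 (not called) and 1.16 (called higher, limma adjusted p = 0.000859). The set at 1.16 was below the limit on every unbound array, which fixed its direction, while the set at 0.84 was measured in both fractions. The direction of Fzd3 is therefore open to doubt, as is that of Wnt7a. The remaining Frizzled genes were below the limit on every IP array. Fzd4, an endothelial and retinal receptor, was at 3.57 on every IP array, against 7.31, 7.32 and 7.11 in unbound RNA, and was at least 4.75-fold lower in IP (adjusted p = 5.73e-07). Fzd2 was at 1.98 on every IP array, against 6.83, 6.33 and 6.84 in unbound RNA, and had a bound of at least 3.17-fold. Fzd7 had 2.18, 2.83 and 2.18 in IP, against 6.92, 6.23 and 6.09 in unbound RNA, with a bound of at least 2.66-fold. For these genes the filter fixed the direction, and the bounds alone describe the gap between the fractions. Fzd5 had 2.06 on every IP array, against 6.31, 5.82 and 5.97 in unbound RNA, and was at least 2.05-fold lower. Fzd9 was near the limit in unbound RNA, with a bound of at least 1.12-fold. Fzd6, Fzd8 and Fzd10 were not tested. The co-receptor gene Lrp6 had 4.10, 4.13 and 4.10 in IP, against 7.21, 6.88 and 6.64 in unbound RNA, and was at least 3.76-fold lower in IP (adjusted p = 1.13e-05), while Lrp5 was below the limit throughout.

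**Figure D4:**
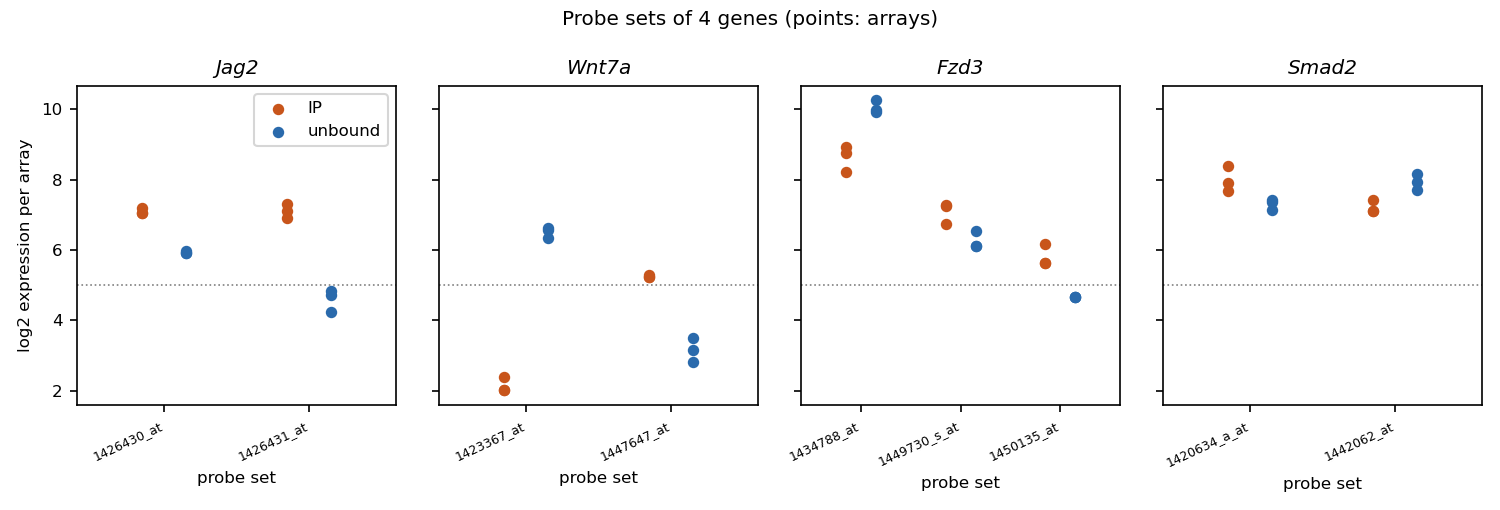
Log2 expression on each array for every tested probe set of Jag2, Wnt7a, Fzd3 and Smad2, with IP points left of unbound points and the detection limit dotted. Both probe sets of Jag2 are higher in IP, but the dimmer set is below the limit on every unbound array. Probe sets of Wnt7a, Fzd3 and Smad2 disagree in direction.

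Downstream, Axin1, the scaffold of the complex that destroys beta-catenin, had 6.17, 6.23 and 6.17 in IP, against 7.24, 7.24 and 7.36 in unbound RNA, and fell 2.13-fold (log2 change -1.09, SE 0.08, limma adjusted p = 3.18e-05), a call lost under each scaling tried other than to the biotin or poly-A controls. Axin2, a feedback inhibitor that Wnt signalling itself induces, had 4.26, 4.26 and 4.02 in IP, against 7.65, 7.96 and 7.79 in unbound RNA, and was at least 6.97-fold lower in IP (adjusted p = 1.57e-06). The Axin2 values in IP all lay under log2 5. The direction of Axin2 was thus set by the filter, and only the bound describes the gap. Tcf7l2, a TCF factor strongly expressed by thalamic and some midbrain neurons, had 5.80, 6.08 and 5.80 in IP, against 10.11, 9.66 and 9.88 in unbound RNA. It was measured in both fractions and fell 15.9-fold (log2 change -3.99, SE 0.15, limma adjusted p = 2.45e-06). Its 2 other tested probe sets were lower in IP too. Neither of the 2 reached log2 5 in any IP sample, so their direction came from the filter and adds no support. Tcf7l1 had 2.46 on every IP array, against 7.22, 6.69 and 6.72 in unbound RNA, with a bound of at least 3.68-fold. Lef1 had 1.98 on every IP array, against 6.45, 6.01 and 5.74 in unbound RNA, with a bound of at least 2.1-fold. Neither of these was above the limit on any IP array.

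The secreted inhibitors, which trap Wnt or block Lrp co-receptors, were called lower in 2 of 5 tested cases. Sfrp1 had 7.19, 7.32 and 7.19 in IP, against 7.29, 7.28 and 7.14 in unbound RNA. The groups overlapped (log2 change -0.002, SE 0.08, limma adjusted p = 0.985), and its sign turned positive under every scaling tried but those to the arrays' own biotin controls and to the poly-A controls. Dkk3, a divergent Dickkopf member with little action on Lrp receptors, had 7.86, 8.54 and 8.41 in IP, against 8.79, 8.83 and 9.06 in unbound RNA. Its IP arrays lay below the unbound ones, but the change was under 2-fold (log2 change -0.62, SE 0.20, limma adjusted p = 0.0256) and turned positive under quantile normalisation (0.065) and with the median of expressed (0.17) or of all probe sets (0.40). Sfrp4 had 4.60 on every IP array, against 5.22, 5.48 and 5.22 in unbound RNA. It was below the limit in IP and not called (log2 change -0.70, SE 0.10, limma adjusted p = 0.000719), and it turned positive under the same 3 scalings. Sfrp5 had 3.56 on every IP array, against 6.35, 6.40 and 6.42 in unbound RNA, and was at least 2.62-fold lower in IP (adjusted p = 5.95e-07). Sfrp2 was lower too, though its bound was at least 1.69-fold. Dkk1, Dkk2 and Dkk4 were below the limit on all arrays.

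Of 34 tested genes from a list of other Wnt pathway genes, 22 fell, 12 were not called and 0 rose (limma; 5 were higher and 26 lower at an unadjusted p under 0.05). Beside these stand 10.4% of all tested genes called higher and 41.1% called lower. The filter fixed the direction of 7 of the 34, among them Rspo2, Znrf3 and Tle2. The falls with the largest fitted change were those of Rspo2, which amplifies Wnt signals (at least 3.82-fold), Znrf3, a ubiquitin ligase that removes Frizzled receptors (at least 3.01-fold), and Tle2, a co-repressor of TCF factors (at least 2.08-fold). Ctnnb1, the gene of beta-catenin, was abundant in both fractions, at 12.30 in IP and 13.95 in unbound RNA.

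BMP pathway genes fell in 13 of 14 tested cases, with no gene higher (limma; 1 higher and 13 lower at an unadjusted p under 0.05). Of all tested genes, 10.4% were called higher and 41.1% lower. Unlike the receptors of Notch, much of the BMP machinery was well above the detection limit in IP, and 9 of the 14 genes were measured in both fractions. The other 5 were below the limit on every IP array, which fixed their direction. The median log2 change of -1.86 includes their fitted values. With the median of all probe sets, 1 was higher and 5 lower and the falls of Bmpr1a, Bmpr2, Id2 and all 5 Smad genes that fell were no longer called.

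Bmpr2, the type II receptor, had 11.25, 11.77 and 12.01 in IP, against 13.28, 13.03 and 13.31 in unbound RNA. It fell 2.88-fold (log2 change -1.53, SE 0.21, limma adjusted p = 0.000693), and its second probe set fell by 1.63 on the log2 scale. Bmpr1a, a type I receptor, had 8.82, 8.81 and 8.81 in IP, against 10.06, 9.80 and 10.19 in unbound RNA, and fell 2.3-fold (log2 change -1.20, SE 0.12, limma adjusted p = 0.000138). The IP arrays of both genes lay below all unbound arrays. Bmpr1b, the other type I receptor, had 2.06 on every IP array, against 6.76, 5.60 and 6.45 in unbound RNA, and was at least 2.42-fold lower in IP (adjusted p = 3.25e-05). Of these 2 type I receptor genes, Bmpr1a alone was detected in IP, and only by its brightest probe set. The other tested probe sets of Bmpr1a were below the limit on every IP array, which fixed their direction, with log2 changes of -2.04, -1.86 and -3.42.

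The ligand genes were dim. Bmp2 had 3.22 on every IP array, against 7.92, 7.58 and 7.40 in unbound RNA, and was at least 6.21-fold lower in IP (adjusted p = 1.46e-06). Bmp6 had 1.98 on every IP array, against 5.71, 5.64 and 5.71 in unbound RNA, with a bound of at least 1.61-fold. Bmp4, a ligand that patterns the dorsal neural tube, had 1.98 on every IP array, against 5.17, 5.12 and 5.36 in unbound RNA, with a bound of at least 1.16-fold. Both lay close to the limit in unbound RNA. Bmp5, Bmp7, Bmp8a and Bmp8b were not tested, nor was Bmp1, which encodes a procollagen protease and no BMP ligand.

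Among the Smad genes, Smad1, which carries the BMP signal, had 10.75, 10.52 and 10.44 in IP, against 11.96, 11.29 and 11.51 in unbound RNA. It fell 2.02-fold (log2 change -1.02, SE 0.19, limma adjusted p = 0.00302), just past the limit of the call, which was lost without unbound replicate 1 (-0.83), IP replicate 2 (-0.99) or IP replicate 3 (-0.95). Smad5, its close relative, had 6.57, 7.08 and 6.96 in IP, against 8.58, 8.69 and 8.70 in unbound RNA, and fell 3.45-fold (log2 change -1.79, SE 0.14, limma adjusted p = 6.3e-05). Smad4, the partner that every activated Smad shares, had 9.17, 9.33 and 9.33 in IP, against 11.47, 10.85 and 11.04 in unbound RNA, and fell 3.59-fold (log2 change -1.84, SE 0.17, limma adjusted p = 0.000118). In each of these genes all IP arrays lay below all unbound arrays, and every other tested probe set of Smad1 and Smad4 fell too. The dimmest Smad1 set was below the limit on every IP array, which fixed its direction. Smad7, an inhibitory Smad that the pathway induces, had 7.37, 7.23 and 7.23 in IP, against 9.62, 9.00 and 9.04 in unbound RNA and fell 3.84-fold (log2 change -1.94, SE 0.18, limma adjusted p = 0.000119), while its second probe set fell by 1.47 on the log2 scale.

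Smad2 and Smad3 carry TGF-beta and activin signals. Smad3 had 6.52, 6.43 and 6.52 in IP, against 8.11, 7.84 and 8.06 in unbound RNA, and fell 2.85-fold (log2 change -1.51, SE 0.10, limma adjusted p = 2.32e-05). Smad2 had 8.38, 7.68 and 7.91 in IP, against 7.14, 7.42 and 7.38 in unbound RNA. Its IP arrays lay above the unbound ones, but the change was under 2-fold and not called (log2 change 0.68, SE 0.19, limma adjusted p = 0.018). It was called higher under quantile normalisation (1.53) and with the median of expressed (1.48) or of all probe sets (1.71), while its second probe set was lower in IP by 0.71. Smad6 and Smad9 were below the limit on all arrays.

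The Id genes encode proteins without a DNA-binding region that hold back basic helix-loop-helix factors, and BMP signals induce them. Id3 had 3.79 on every IP array, against 8.59, 8.74 and 8.58 in unbound RNA, and was at least 12.4-fold lower in IP (adjusted p = 3.62e-07). Id2 remained abundant in IP, with 11.08, 11.06 and 11.00 in IP, against 13.32, 12.49 and 12.98 in unbound RNA, and fell 3.69-fold (log2 change -1.88, SE 0.21, limma adjusted p = 0.000266). A dimmer Id2 probe set was at 2.52 on every IP array, against 6.96, 6.57 and 6.99 in unbound RNA. Both sets lay lower in IP, by unequal amounts, but the dimmer was below the limit on every IP array, which fixed its direction. Id1 reached the limit on 1 unbound array only and was not tested. Id4, which is outside the set, was at 12.84 in IP and 12.59 in unbound RNA and was not called.

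Of 25 tested genes from a list of other BMP, TGF-beta and activin genes, 1 rose, 16 fell and 8 were not called. Beside these stand 10.4% of all tested genes called higher and 41.1% called lower. The filter fixed the direction of 9 of the 25, among them Tgfbr2, Acvr1c and Inhba. Fst, the gene of follistatin, which binds and blocks activin, was the one that rose, with 6.63, 6.58 and 6.58 in IP, against 5.04, 3.89 and 3.27 in unbound RNA (log2 change 2.53, SE 0.43, limma adjusted p = 0.00197). The unbound arrays spread widely and only one of them reached the limit. The falls with the largest fitted change were those of Tgfbr2, the type II TGF-beta receptor (at least 8.2-fold), Acvr1c, a type I receptor (at least 3.22-fold), and Inhba, a subunit of activin (at least 2.18-fold). The type I receptor genes Acvr1 and Acvr1b were not called, at -0.33 and -0.47.

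All 4 tested Hedgehog genes fell, with 0 higher (limma; 0 higher and 4 lower at an unadjusted p under 0.05). Of all tested genes, 10.4% were called higher and 41.1% lower. Only Ptch1 was measured in both fractions, and it fell under every scaling tried, while the filter fixed the direction of the other 3. Ptch1, the Hedgehog receptor gene and itself a Hedgehog target, had 8.67, 8.61 and 8.61 in IP, against 12.28, 11.79 and 12.08 in unbound RNA. It was clearly detected in IP and fell 10.7-fold (log2 change -3.42, SE 0.14, limma adjusted p = 3.29e-06). Smo, the signal transducer, had 3.42 on every IP array, against 6.78, 7.01 and 6.86 in unbound RNA, and was at least 3.69-fold lower in IP (adjusted p = 6.73e-07), with a second probe set that fell by 3.91 on the log2 scale. Gli2, the main activator, had 1.99 on every IP array, against 7.65, 6.99 and 6.63 in unbound RNA, and was at least 4.26-fold lower in IP (adjusted p = 8.28e-06). Gli3, the main repressor, had 1.98 on every IP array, against 6.41, 6.23 and 6.42 in unbound RNA, and was at least 2.55-fold lower in IP (adjusted p = 3.99e-07). Smo and both Gli genes were below the limit on every IP array. Gli1, the usual read-out of active signalling, was below it on all 6 arrays.

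Of 9 tested genes from a list of other Hedgehog pathway genes, 6 fell, 3 were not called and 0 rose (limma; 0 higher and 7 lower at an unadjusted p under 0.05). Beside these stand 10.4% of all tested genes called higher and 41.1% called lower. The filter fixed the direction of 4 of the 9, among them Gas1, Cdon and Hhip. Gas1 and Cdon, co-receptors for Hedgehog, had bounds of at least 15-fold and at least 4.48-fold, and Hhip, a decoy receptor, one of at least 4.05-fold. Shh, the ligand gene, named after its values were seen, was at 6.48 in IP and 9.33 in unbound RNA and fell by 2.86 on the log2 scale.

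Of 15 signalling genes with more than one tested probe set, 12 had probe sets of one sign and 3 (Wnt7a, Fzd3 and Smad2) did not. The filter fixed the direction of every tested probe set of Wnt7a, Tcf7l1 and Smo. It also fixed that of some sets of Jag2, Fzd3, Tcf7l2, Bmpr1a, Smad1 and Id2, so these counts do not measure agreement between probe sets. Identical values on arrays of one group, which the deposited values hold in IP above the limit too, make an SE small. Of all probe sets with an IP mean of at least 5 before scaling, 15.8% had 3 identical IP values. Of those with such an unbound mean, 0.48% had 3 identical unbound values. Of the 22 genes measured in both fractions, 11 had at least 2 identical IP values, so the same holds for their SEs. Jag2, Dll1 and Hes6, which rose, and Tcf7l2 and Ptch1, which fell, are among them. Of the 28 tested genes below the limit in IP, 22 had 3 identical IP values, so that the SE of their change comes mainly from the unbound arrays. The bounds of the 28 ran from 1.12-fold to 13.4-fold, and 21 of the 27 called lower had a bound of at least 2-fold.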

How the data were processed

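RNA from 3 IP and 3 unbound samples was hybridised to Affymetrix mouse arrays after two-cycle amplification from 20 ng of total RNA, per the labels' protocols. Each array has 45101 log2 values, deposited by the authors, from GCRMA run apart on IP and on unbound arrays, per the submitters' processing notes and design text, with no version named. Their range showed the log2 scale. Following the design text, -0.23 was added to each IP value so that 18 biotinylated control probe sets had equal means.

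Probe sets with 1 symbol in the platform annotation covered 18193 genes, and the brightest probe set stood for its gene. Genes with at least 3 of 6 arrays at log2 5 were tested with limma 3.58.1 in R 4.3.3 (lmFit, eBayes, two-sided) on group alone, and checked on simulated data. Named were all tested signalling genes and, from each list of other pathway genes, up to 3 called higher and 3 called lower with the largest change, while the others were named after their values were seen. The genes and lists were chosen with earlier results of these data known.

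The unbound labels name the IP replicate they belong to, so numbers pair the samples. Deviations from group means correlated at 0.27, 0.16 and 0.10 within pairs. Pairs entered a second fit as a block. Alternatives were other scalings, filters, probe set rules and the removal of each array. Precision is limited by having 3 arrays per group.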

Additional observations from a re-analysis of the deposited data

How the results depend on the processing

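Of the 13 falls measured in both fractions, 2 kept their call under every alternative that tested them and 11 lost it under some. Another 25 kept it, but lay below the limit on every IP array, so that the filter fixed their direction. A fit with the replicate pairs as a block gave 5 higher and 40 lower, as without it, and changed no call. Leaving out 1 array in turn gave 3 to 5 higher and 39 to 40 lower. Calls higher numbered 8 with the median of all probe sets, 0 with the poly-A controls and 3 with the mean of probe sets. Calls lower numbered 20 with the filter at log2 7, 25 with the mean of probe sets and 19 without genes of identical values, since 28, 33 and 28 of these genes were then tested. Over all tested genes, 1104 were called higher and 4354 lower, against 1500 and 3746 without scaling, 2514 and 2473 after quantile normalisation, 2934 and 2596 with the median of expressed probe sets, 3671 and 2203 with that of all probe sets and 35 and 9992 with the poly-A controls. Among the signalling genes, signs turned as follows. Under quantile normalisation Hey1 was at 0.17, Sfrp1 at 0.92, Sfrp4 at 0.83 and Dkk3 at 0.065. With the median of expressed probe sets they were at 0.47, 0.80, 0.10 and 0.17, and with that of all probe sets at 0.70, 1.03, 0.33 and 0.40, with Smad1 at 0.012. Under the poly-A controls Jag2 was at -1.53, Dll1 at -1.60, Hes6 at -1.18, Wnt4 at -1.55, Wnt5a at -1.63 and Smad2 at -2.00. Sfrp1 was at 0.23 without scaling, 0.019 without IP replicate 1 or 3 or unbound replicate 2, and 0.027 without unbound replicate 1, but -0.051 without unbound replicate 3, and Smad2 at -0.014 with the mean of probe sets. The cause of these shifts between scalings was not tested. No value below log2 5 can rank genes within IP.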
